A study of Saccharomyces cerevisiae with 9 samples.

Results

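Chromosome I is the shortest of the 16 nuclear chromosomes of *Saccharomyces cerevisiae*, and the mRNA levels of its genes are described here in 9 RNA-Seq libraries. Members were the transcript entries whose systematic name places them on chromosome I (YAL for the left arm, YAR for the right arm), less 11 entries set aside beforehand, and were selected on a mean expected count of at least 10 over the 9 libraries, which is a level and not a change. Of 120 chromosome I mRNA entries, 109 were left after the exclusions and 97 passed the minimum, 70 on the left arm and 27 on the right. They are set against 6092 mRNA entries of the other 15 chromosomes that met the same minimum. Of the 12 entries under the minimum, 3 had no count in any library. The members just inside the minimum were YAL047W-A, YAL066W and YAL056C-A, with mean counts of 14.3, 16.7 and 17.2, and those just outside were YAL045C, YAR070C and YAR064W, with 9.59, 9.32 and 7.56. The 3 members YAL066W, YAL047W-A and YAL034C-B had a mean of at least 10 in the *pab1Δpbp1Δ* libraries alone, so they passed through the strain in which they are high. RefSeq's annotation of the R64 genome holds a gene for 81 members and none for 16.

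The strains were *pab1Δpbp1Δ* (*pbp1::URA3* and *pab1::kanMX*), *pbp1Δ* (*pbp1::URA3*) and their isogenic WT, with 3 libraries each, all in the W303 background and grown in rich medium (YEPD) at 30°C to log phase. Pab1 is the cytoplasmic poly(A)-binding protein, which coats the tails of mRNAs, and *PAB1* is essential. Loss of Pbp1, a protein that binds Pab1, lets cells live without Pab1, so *pbp1Δ* is the control for the *PAB1* deletion and both mutants lack Pbp1. The *pab1Δpbp1Δ* isolates were made from a single *pbp1Δ* isolate and divided more slowly than both other strains. The study's methods call the mutant libraries isolates and the WT libraries technical replicates, so p-values against WT rest in part on technical spread.

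A yeast chromosome is read from many promoters, and neighbouring genes lie close together on both strands. The short sequence of a point centromere parts the arms. The regions next to the ends (subtelomeres) hold gene families with near-identical copies on other chromosomes, such as the *FLO* flocculins and the *PAU* seripauperins, and genes there are often kept at low levels by silencing. Chromosome I also carries genes of metabolism, vesicle traffic, the cell cycle, RNA processing and mitochondria, with no function common to them.

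The centromere from which locus order was counted is shown first. In *pab1Δpbp1Δ*, the median change of the 10 members on either side of it was below that of groups of members farther out. The groups were not compared at like level, and on each side 4 or 5 of the 10 members lay above 0 in each library. No link to the centromere was tested. The centromere sequence is at chrI:151465-151582 of R64, plus strand. The conserved elements CDEI (10 bases) and CDEIII (25 bases) are in capitals and CDEII (83 bases, 96.4% A or T) is in lower case.
CEN1: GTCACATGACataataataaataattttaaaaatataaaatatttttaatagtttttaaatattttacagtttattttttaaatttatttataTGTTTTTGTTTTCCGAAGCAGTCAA

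Next are upstream windows of *BDH1* and its neighbour *BDH2*, a tandem pair of dehydrogenase genes, and of *RFA1*. Among members averaging at least 50 TMM-normalized counts (scaled to library size) per library, *BDH1* had the 2nd largest rise and *RFA1* the 2nd largest fall. Each window runs from 300 to 101 bases before the start codon on the gene's strand, taken from the RefSeq R64 genome. Capitals mark the letters AGGGG or, on the other strand, CCCCT (the stress response element, STRE) and the letters ACGCGT, which read the same on both strands (the MluI cell cycle box, MCB). The motifs do not overlap each other in these windows. *BDH1* is at chrI:34855-35054 and *BDH2* at chrI:33148-33347, both on the plus strand, and *RFA1* is at chrI:158720-158919 on the minus strand.
BDH1: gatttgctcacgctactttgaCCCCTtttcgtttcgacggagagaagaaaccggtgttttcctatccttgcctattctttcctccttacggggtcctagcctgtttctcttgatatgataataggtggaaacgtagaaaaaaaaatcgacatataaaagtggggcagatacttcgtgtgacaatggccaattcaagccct
BDH2: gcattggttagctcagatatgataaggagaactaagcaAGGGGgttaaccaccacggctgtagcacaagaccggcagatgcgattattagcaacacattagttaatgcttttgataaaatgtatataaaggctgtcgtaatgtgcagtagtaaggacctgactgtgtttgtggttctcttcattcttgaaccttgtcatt
RFA1: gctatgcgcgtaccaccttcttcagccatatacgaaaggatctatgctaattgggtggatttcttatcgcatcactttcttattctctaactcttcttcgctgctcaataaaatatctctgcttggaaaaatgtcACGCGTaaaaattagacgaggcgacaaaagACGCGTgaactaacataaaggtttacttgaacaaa

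Levels are expected counts scaled to library size by edgeR's TMM method (CPM), and the total expected count per library lay between 77751826 and 89196615 in *pab1Δpbp1Δ*, between 75215943 and 100361368 in *pbp1Δ* and between 73062345 and 87763579 in WT. The deleted genes matched the labels. *PAB1* had 50.04, 26.0 and 22.0 counts in *pab1Δpbp1Δ*, against 108388 to 142056 in *pbp1Δ*. *PBP1* had 118, 77.0 and 66.0 counts in *pbp1Δ*, against 22789 to 26638 in WT. For 2 members the counts equal those of some other entry throughout, so the pairs cannot be told apart. How the counting treated the strand of reads is not given in the sources used here, so members that overlap a gene on the other strand cannot be told apart from it.

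The first question was whether chromosome I as a whole stood apart in any library. For each library the log2 ratio of every entry to the mean of the *pbp1Δ* libraries was taken on the log2(CPM + 0.5) scale, a *pbp1Δ* library being left out of its own reference. The median over the members was 0.27, 0.43 and 0.42 in *pab1Δpbp1Δ* replicates 1, 2 and 3. It was 0.00, 0.01 and -0.00 in *pbp1Δ* and -0.01, -0.06 and -0.08 in WT. The 3 *pab1Δpbp1Δ* libraries thus lay above all 6 others, with a mean of 0.37 ± 0.09 (SD, n = 3) against 0.00 ± 0.01 in *pbp1Δ* and -0.05 ± 0.04 in WT. Entries of the other 15 chromosomes had medians of -0.00, -0.01 and 0.01 in the same *pab1Δpbp1Δ* libraries. These medians describe the libraries and carry no test, since the chromosome was chosen with earlier results known. They are mRNA levels, and the DNA copy number of chromosome I in these isolates was not measured here, so mRNA per gene copy is not known.

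Among the 16 chromosomes, chromosome I ranked 1st in each of the 3 *pab1Δpbp1Δ* libraries. Chromosome IX came next by the mean of the 3 medians (0.17), then X (0.12), III (0.09) and VI (0.08), and XIV was lowest (-0.09). In WT, chromosome I ranked 13th, 16th and 15th. The chromosome I medians are without the 11 set-aside entries, while no entry was set aside on other chromosomes.

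**Figure D1:**
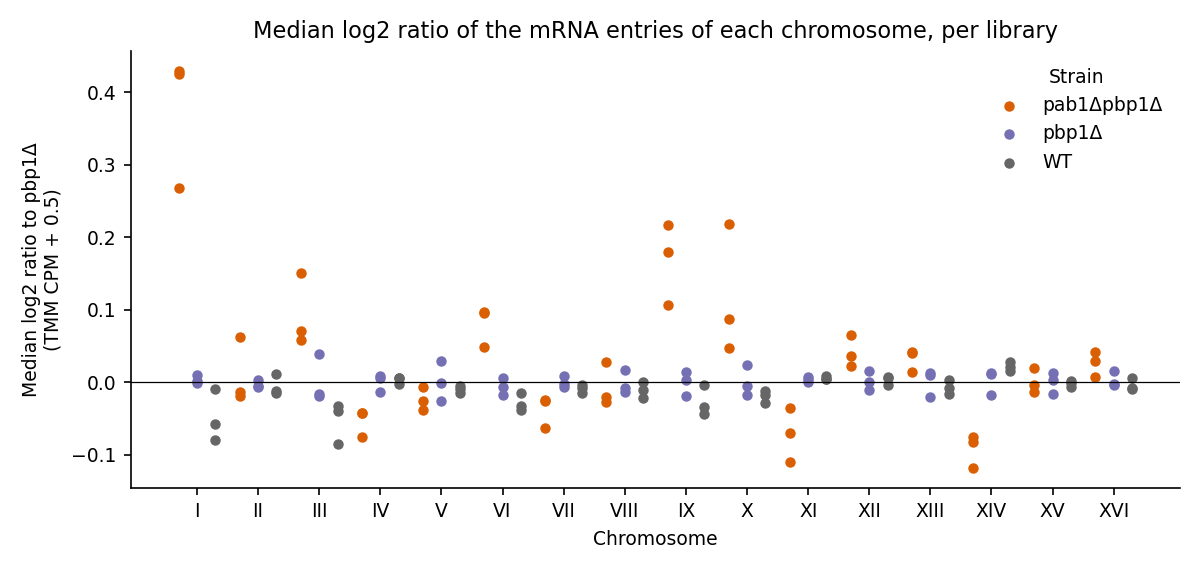
Median log2 ratio to the *pbp1Δ* libraries (vertical axis, TMM-normalized CPM + 0.5) of the mRNA entries of each chromosome (horizontal axis), 1 point per library, for *pab1Δpbp1Δ*, *pbp1Δ* and WT. Chromosome I lies at 0.27, 0.43 and 0.42 in the *pab1Δpbp1Δ* libraries, above the points of every other chromosome.

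The members took a larger share of all counts in the double mutant. Their summed share was 0.811%, 0.888% and 0.936% in *pab1Δpbp1Δ*, against 0.702%, 0.701% and 0.712% in *pbp1Δ* and 0.704%, 0.703% and 0.707% in WT. The *pab1Δpbp1Δ* libraries did not overlap with the others. A sum is weighted towards entries with many counts. Among these, the Ty1 entry YAR009C, which shares sequence with other copies, had 605, 840 and 563 CPM in *pab1Δpbp1Δ*. It had 392.5, 340 and 446.5 CPM in *pbp1Δ*. *BDH1* also rose, while the high entries *CYS3* and *FUN12* fell. The part of single entries in the share was not tested. Of the 97 members, 56 (57.7%) lay above the median of the other chromosomes in all 3 *pab1Δpbp1Δ* libraries and 18 (18.6%) below it in all 3. The 56 include the 3 members that met the minimum count only through the double mutant. Of the 6092 entries of other chromosomes, 37.6% lay above and 37.4% below in all 3.

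Along the locus order the members were not raised evenly. In consecutive blocks of 10, the block at the left end (YAL069W to *FLO9*) had medians of 0.56, 0.91 and 0.82 in *pab1Δpbp1Δ* replicates 1, 2 and 3, and all 10 of its members lay above 0 in each. This block includes YAL066W, which met the minimum count only through the double mutant. From *GDH3* to *SYN8*, block medians ran between 0.05 and 0.54. The blocks that flank the centromere were the only ones with medians below 0 in all 3 of these libraries. The left one (*DEP1* to *TFC3*) had -0.08, -0.32 and -0.06 and the right one (*NUP60* to *CDC15*) had -0.13, -0.17 and -0.04. In each of them 4 or 5 of the 10 members lay above 0, and blocks were not compared at like level. Farther out on the right arm, the block of YAR019W-A to *YAT1* had 0.57, 0.83 and 0.93, and the last 7 members (*SWH1* to YAR069C) had 0.35, 0.95 and 0.63. In the WT libraries the same end blocks lay below 0. The left end block had -0.18, -0.13 and -0.29 and the right end block -0.22, -0.28 and -0.29.

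By arm, the left arm medians were 0.21, 0.43 and 0.40 in *pab1Δpbp1Δ* and -0.00, -0.02 and -0.05 in WT. The right arm medians were 0.30, 0.35 and 0.53 in *pab1Δpbp1Δ* and -0.06, -0.13 and -0.14 in WT. Both arms were thus above 0 in each double mutant library.

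**Figure D2:**
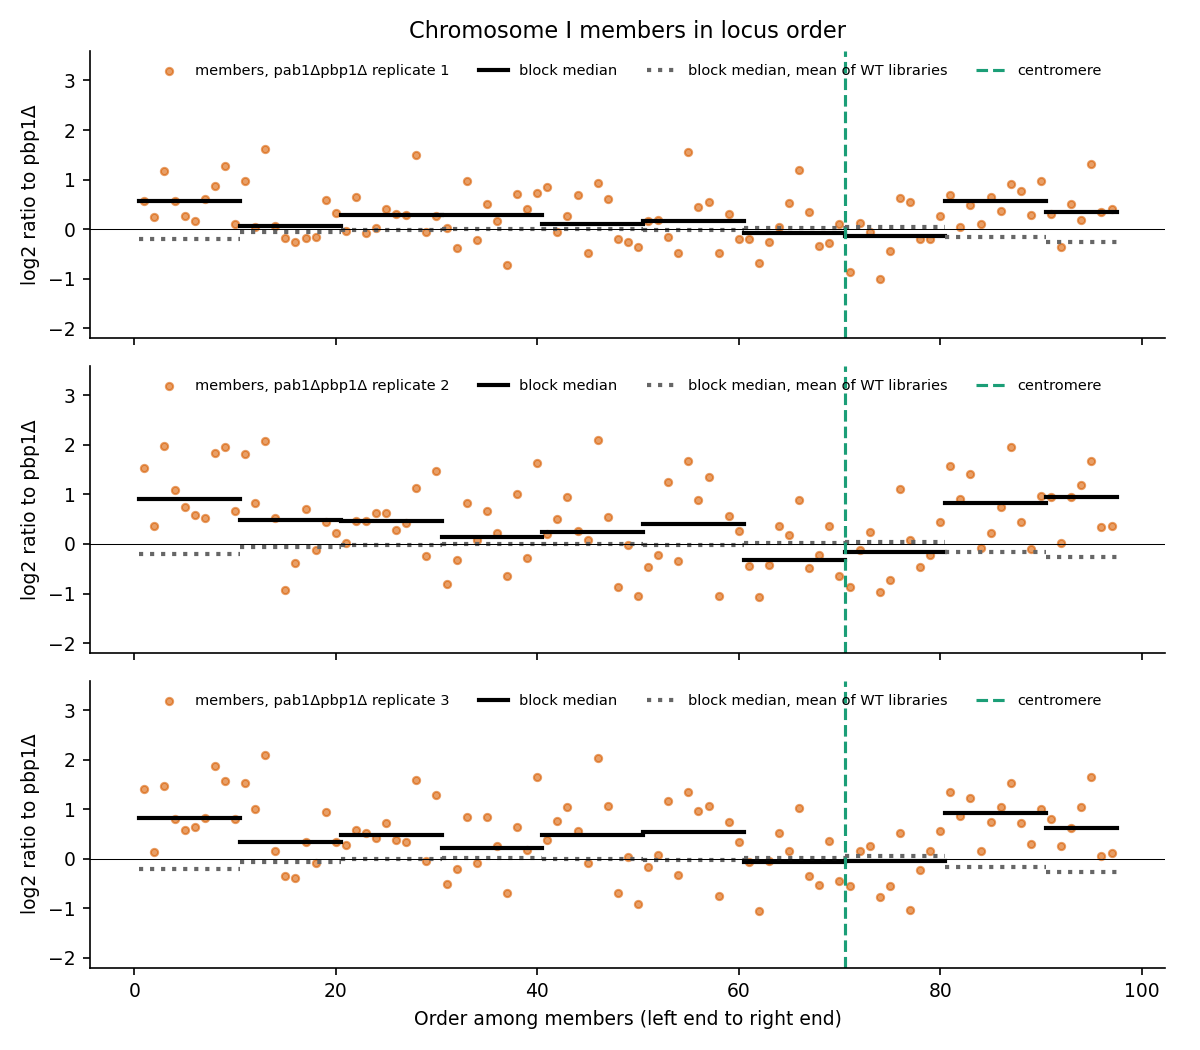
Log2 ratio to the *pbp1Δ* libraries of the 97 members in locus order (horizontal axis, position among members), 1 panel for each *pab1Δpbp1Δ* library. Points are members, solid bars are medians of consecutive blocks of 10 (7 in the last), dotted bars are the mean of the block medians of the 3 WT libraries, and the dashed line is the centromere. Bars are high at both ends and near or below 0 beside the centromere.

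The members nearest the centromere were, on the left, YAL004W, *VPS8* and *TFC3* and, on the right, *NUP60*, *ERP1* and *SWD1*. *TFC3*, the gene of the largest TFIIIC subunit, had a log2 fold change of -0.31 ± 0.20 (SE) in *pab1Δpbp1Δ* against *pbp1Δ*, *VPS8*, whose product acts in endosomal tethering, 0.18 ± 0.17, and *ERP1*, of the p24 cargo receptor family, 0.06 ± 0.11, and *SWD1*, of the histone methyltransferase complex COMPASS, 0.16 ± 0.11, and none of the 4 passed the test described below. YAL004W, which lies opposite the chaperone gene *SSA1*, had 14.0, 19.0 and 6.14 counts in *pab1Δpbp1Δ*, against 29.3, 26.0 and 22.0 in *pbp1Δ*. The strains did not overlap there, and the change of -1.20 ± 0.43 missed the threshold (adjusted p = 0.0426, edgeR's quasi-likelihood test).

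Level and position also went with the log2 ratio, so the difference from other chromosomes was taken within classes of each. With all entries cut into low, middle and high classes of like size at mean levels of 24.99 and 86.1 CPM, 48 members (49.5%) were in the low class, 21 in the middle and 28 in the high. In *pab1Δpbp1Δ* replicates 1, 2 and 3 the medians of the low class were 0.44, 0.73 and 0.82 over members and 0.30, 0.51 and 0.45 over other chromosomes. Those of the high class were -0.06, -0.07 and -0.06 over members and -0.29, -0.41 and -0.41 over other chromosomes. Low entries were thus higher than high entries in the double mutant, both among members and over the other 15 chromosomes together, and the members lay above the others in each class. The difference was 0.15, 0.21 and 0.37 in the low class, 0.04, 0.31 and 0.33 in the middle class and 0.23, 0.34 and 0.35 in the high.

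For the 70 members with a RefSeq gene over 30 kb from an end, the difference from like entries of other chromosomes was 0.20, 0.30 and 0.37. For the 11 within 30 kb it was 0.09, -0.02 and 0.28, beside medians of 0.35, 0.66 and 0.80 over members and 0.25, 0.69 and 0.53 over the 315 like entries elsewhere. Entries near chromosome ends were thus high in the double mutant on other chromosomes too, by about as much in replicate 2. For the 81 members with a RefSeq gene the difference was 0.28, 0.33 and 0.38. The part that level and position have in the difference was not tested further.

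**Figure D3:**
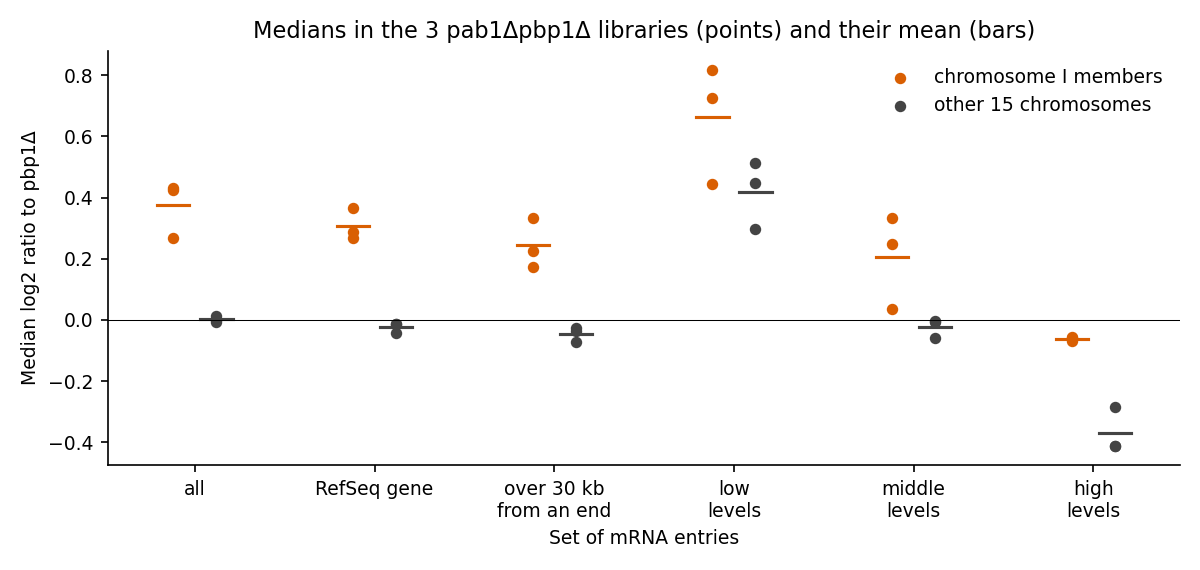
Median log2 ratio to the *pbp1Δ* libraries in the 3 *pab1Δpbp1Δ* libraries (points) and their mean (bars), for chromosome I members and for entries of the other 15 chromosomes in the same subset. In each library the members lie above the other chromosomes in the subsets shown, and both sets fall with rising level. The 11 members within 30 kb of an end, where the difference was 0.09, -0.02 and 0.28, are not plotted.

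The effect of *PAB1* deletion on single members was tested by comparing *pab1Δpbp1Δ* with *pbp1Δ* over all entries with edgeR's quasi-likelihood test and Benjamini-Hochberg adjustment, and an adjusted p under 0.01 counted as a change. All 97 members were tested. Of them 39 changed (40.2%), against 34.8% of all 6573 entries tested. They were unequal in direction, with 33 higher (34.0%, against 18.0% of all entries) and 6 lower (6.19%, against 16.7%). In 50 members every *pab1Δpbp1Δ* library lay above every *pbp1Δ* library (51.5%, against 32.8%), and in 17 every one lay below (17.5%, against 32.0%). Both the 33 and the 50 include YAL066W and YAL034C-B, which met the minimum count only through the double mutant. The median log2 fold change was 0.49 over members and 0.03 over all entries, and 69 members had a positive one (71.1%, against 52.0%). The members' median and the 69 include these 2 and YAL047W-A, the 3 members that passed the minimum through the double mutant. Among the 39, 21 changed at least 2-fold, YAL066W and YAL034C-B among them. The share of all entries that did so is not given here, so this number has no baseline.

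Members with a RefSeq gene gave 25 higher and 6 lower calls of 81, with a median of 0.33. Those without gave 8 higher calls of 16, beside 18.0% higher calls over all entries. Their median of 1.24 includes the 3 members that passed the minimum through the double mutant. On other chromosomes, entries without a RefSeq gene were also high in the double mutant. Their median log2 ratios to *pbp1Δ* were 0.12, 0.47 and 0.33 in *pab1Δpbp1Δ* replicates 1, 2 and 3 (412 entries). Those of the 16 members were 0.33, 1.05 and 0.72. Whether the calls of these 16 differ from those of like entries elsewhere was not tested. The number of calls over all members depended on single libraries. It was 66 without *pab1Δpbp1Δ* replicate 1, 17 without replicate 3, and 15, 12 and 16 without *pbp1Δ* replicates 1, 2 and 3. The share of all entries called in those fits is not given here, so whether the swing is particular to the members is not known. Calls that held in every one of the alternative fits were 9 higher (*BDH1*, *LDS1*, *GDH3*, *GCV3*, *CYC3*, *FUN14*, *SEO1*, YAL063C-A and YAR061W) and 2 lower (*RFA1* and *NUP60*).

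The counts by role group that follow carry no test and stand beside 18.0% higher and 16.7% lower calls over all entries. Over the members these shares were 34.0% and 6.19%. Of 7 genes of cytosolic metabolism and signalling, 3 rose (*BDH1*, *GDH3* and *PSK1*), 1 fell (*CYS3*) and 3 did not pass, with a median of 0.74. *GDH3*, which encodes an NADP-dependent glutamate dehydrogenase, *BDH2* and *BDH1* stand in a row on the left arm. *GDH3* and *BDH2* were singled out after their values were seen. *GDH3* had 6.94, 12.9 and 10.5 CPM in *pab1Δpbp1Δ*, against 3.48, 3.24 and 3.18 CPM in *pbp1Δ* and 3.67, 3.51 and 3.01 CPM in WT. Its log2 fold change was 1.61 ± 0.24 (adjusted p = 0.00114, edgeR). *BDH1*, the (R,R)-butanediol dehydrogenase gene, had 221, 301 and 305 CPM in *pab1Δpbp1Δ*, against 75.02, 69.6 and 69.3 CPM in *pbp1Δ* and 75.3, 72.5 and 65.3 CPM in WT. Its change of 1.95 ± 0.14 had the lowest adjusted p among the rises given here (adjusted p = 0.000103, edgeR), and all its *pab1Δpbp1Δ* libraries were far above the rest. *BDH2*, 453 bases upstream of *BDH1*, had 4.73, 8.48 and 9.71 CPM in *pab1Δpbp1Δ*, against 4.59, 4.93 and 4.20 CPM in *pbp1Δ*. Its replicate 1 lay within the *pbp1Δ* range, and the change of 0.74 ± 0.26 did not pass (adjusted p = 0.0438, edgeR). Without *pab1Δpbp1Δ* replicate 1 it was 0.99 and passed. *ECM1*, the next RefSeq gene after *BDH1*, whose product takes part in export of the large ribosomal subunit, had 27.1, 15.9 and 23.8 CPM in *pab1Δpbp1Δ*, against 31.2, 29.9 and 30.7 CPM in *pbp1Δ*, a change of -0.46 ± 0.18 that did not pass (adjusted p = 0.0646, edgeR), though it passed without *pab1Δpbp1Δ* replicate 1 (-0.63).

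*CYS3*, the cystathionine gamma-lyase gene of cysteine synthesis, had 517, 394 and 399 CPM in *pab1Δpbp1Δ*, against 799, 896 and 812 CPM in *pbp1Δ* and 947, 952 and 974 CPM in WT. The strains did not overlap, and the change was -0.94 ± 0.15 (adjusted p = 0.0015, edgeR). Its adjusted p was 0.0107 without *pbp1Δ* replicate 2. Per length *CYS3* was the highest member in each strain. On the FPKM scale, which is scaled to transcript length and not by TMM, it had 433 ± 45.8 in *pab1Δpbp1Δ*, 654 ± 26.1 in *pbp1Δ* and 719 ± 10.9 in WT (SD, n = 3 each). In *pab1Δpbp1Δ*, *GCV3* (423 ± 75.0 FPKM) and *ERP1* (409 ± 49.5 FPKM) came next, within the spread of *CYS3*. In *pbp1Δ* the 2nd was *ERP1* with 310 ± 21.8 FPKM, outside the spread of *CYS3*, and *GCV3* was 7th with 124 ± 1.01 FPKM.

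Of 9 members with a role in mitochondria or peroxisomes, 5 rose (*GCV3*, *YAT1*, *FUN14*, *CYC3* and *PEX22*) and 4 did not pass, and all 9 had positive log2 fold changes, the lowest being 0.33 for *MDM10*. The median was 0.71. Among all entries tested 18.0% rose and 52.0% had a positive log2 fold change, and among members 71.1% had a positive one. *GCV3* encodes the H protein of the mitochondrial glycine cleavage complex. It had 164, 127 and 174 CPM in *pab1Δpbp1Δ*, against 57.1, 58.6 and 57.1 CPM in *pbp1Δ* and 50.2, 48.6 and 45.1 CPM in WT, and the change was 1.43 ± 0.13 (adjusted p = 0.000208, edgeR). *CYC3*, the gene of cytochrome c heme lyase, had 39.9, 35.8 and 36.1 CPM in *pab1Δpbp1Δ*, 20.9, 20.1 and 18.9 CPM in *pbp1Δ* and 29.7, 28.1 and 25.3 CPM in WT. It was thus highest in the double mutant and lowest in *pbp1Δ*, and it rose by 0.90 ± 0.10 against *pbp1Δ* (adjusted p = 0.00044, edgeR). *FUN14*, chosen after its values were seen, encodes a mitochondrial membrane protein and had 31.4, 25.2 and 28.0 CPM in *pab1Δpbp1Δ*, 13.8, 14.0 and 12.7 CPM in *pbp1Δ* and 10.6, 10.2 and 9.73 CPM in WT. It was the reverse of *CYC3* in *pbp1Δ*, which lay above WT, and the change in the double mutant against *pbp1Δ* was 1.07 ± 0.12 (adjusted p = 0.000449, edgeR). The calls of *YAT1* (carnitine acetyltransferase) were lost without *pbp1Δ* replicates 2 and 3 or *pab1Δpbp1Δ* replicate 3 (adjusted p of 0.0274, 0.0214 and 0.0208). That of *PEX22* (a peroxisomal import factor) was lost without any 1 of the *pbp1Δ* libraries (0.0445, 0.0453 and 0.0377) or *pab1Δpbp1Δ* replicate 3 (0.0314) and with a replicate block (0.0152).

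RNA processing, export and translation was the group with the most falls. Of 8 members, 3 fell (*NUP60*, *FUN12* and *SEN34*) and 5 did not pass, with a median of -0.29. No member of it passed as higher, where 3 had an unadjusted p under 0.05 in that direction and DESeq2 gave 0. *NUP60*, the first member right of the centromere and a gene of the nuclear pore basket, had 76.4, 76.0 and 94.6 CPM in *pab1Δpbp1Δ*, 134, 140 and 144 CPM in *pbp1Δ* and 168, 165 and 178 CPM in WT. The 3 strains did not overlap, and the change against *pbp1Δ* was -0.76 ± 0.11 (adjusted p = 0.00123, edgeR). *FUN12*, the gene of initiation factor eIF5B, had 505, 537 and 521 CPM in *pab1Δpbp1Δ*, against 732, 940 and 845 CPM in *pbp1Δ* and 826, 869 and 954 CPM in WT. Its change was -0.69 ± 0.13 (adjusted p = 0.00374, edgeR), and the adjusted p was 0.0225 and 0.0219 without *pbp1Δ* replicates 2 and 3, 0.0141 without *pab1Δpbp1Δ* replicate 3 and 0.0104 with upper-quartile normalization. *POP5*, of the RNase P and MRP complexes, was the highest of the group at 0.51 ± 0.17, which did not pass.

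*SEN34*, of the tRNA splicing endonuclease, and *RFA1*, of the DNA repair group, are neighbours read in opposite directions, with 346 bases between their start codons, and both fell. *RFA1* encodes the large subunit of the single-stranded DNA binding complex RPA. It had 58.7, 59.7 and 69.3 CPM in *pab1Δpbp1Δ*, against 107, 129 and 119 CPM in *pbp1Δ* and 131, 140 and 148 CPM in WT, with a change of -0.92 ± 0.12 (adjusted p = 0.000631, edgeR). *SEN34* had 13.0, 10.6 and 12.1 CPM in *pab1Δpbp1Δ*, against 17.9, 19.2 and 16.7 CPM in *pbp1Δ* and 17.5, 18.1 and 18.6 CPM in WT, a change of -0.59 ± 0.13 (adjusted p = 0.00623, edgeR). The *SEN34* call was lost without each of 5 libraries (adjusted p of 0.0289, 0.0386 and 0.0226 for *pbp1Δ* replicates 1, 2 and 3, and 0.0116 and 0.0221 for *pab1Δpbp1Δ* replicates 2 and 3), with upper-quartile normalization (0.0257) and with a replicate block (0.0143). The 2 MCB matches of the *RFA1* window printed above lie 130 and 160 bases (to the nearest base) before the *RFA1* start codon and 212 and 182 bases before that of *SEN34*, so the shared stretch gives both genes their match.

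MCB letters were found in the window of 3 of 80 members (3.75%), of which *RFA1* and *SEN34* are 2 of the 6 that fell, and in 2.92% of 6001 protein-coding genes. STRE letters were in 13 of the 80 (16.2%), in 16.3% of all genes and in 5 of 24 members that rose and had a window (*BDH1*, *FRT2*, *FUN19*, *PEX22* and *YAT1*). A match is a description of the letters only, and the share among members was that of all genes.

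Of 9 members in transcription, chromatin and DNA repair, 2 rose (*SAW1* and *NTG1*), 1 fell (*RFA1*) and 6 did not pass, with a median of -0.23. *SAW1*, which acts in repair of DNA breaks between repeats, had 23.6, 22.8 and 32.8 CPM in *pab1Δpbp1Δ*, against 14.9, 14.1 and 17.3 CPM in *pbp1Δ*, and a change of 0.77 ± 0.17 (adjusted p = 0.00566, edgeR). The call was lost without *pbp1Δ* replicates 1, 2 or 3 (adjusted p of 0.0331, 0.032 and 0.0148) or *pab1Δpbp1Δ* replicate 3 (0.0172). Of 11 cell cycle, spindle and polarity members, *GIP4* and *SPC72* rose, *TPD3* fell and 8 did not pass, with a median of -0.08. *TPD3*, the gene of the scaffold subunit of protein phosphatase 2A, had 164, 112 and 137 CPM in *pab1Δpbp1Δ*, against 216, 246 and 231 CPM in *pbp1Δ* and 204, 202 and 215 CPM in WT, a change of -0.75 ± 0.15 (adjusted p = 0.0042, edgeR). Its call was lost without any 1 of the *pbp1Δ* libraries (0.0156, 0.0228 and 0.0186), without *pab1Δpbp1Δ* replicate 3 (0.0188) and with upper-quartile normalization (0.0101). *GIP4*, whose product binds protein phosphatase 1, had 74.9, 120 and 128 CPM in *pab1Δpbp1Δ*, against 59.4, 65.1 and 61.8 CPM in *pbp1Δ*, a change of 0.79 ± 0.19 whose adjusted p of 0.00891 (edgeR) was between 0.024 and 0.0448 without any 1 of 5 libraries.

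The ER, Golgi and vesicle traffic group had the fewest edgeR calls for its size at this threshold. That rank depended on the tool and cut. DESeq2 called 4 of its members higher and 2 lower, and 4 higher and 3 lower had an unadjusted p under 0.05. By neither count was it the lowest of the groups. Of 14 members, 2 rose (*FRT2* and *SWH1*) and 12 did not pass, with a median of 0.16. *FRT2*, which encodes a tail-anchored ER protein, had 25.6, 57.3 and 55.6 CPM in *pab1Δpbp1Δ*, against 13.1, 13.1 and 13.1 CPM in *pbp1Δ* and 11.4, 11.3 and 8.96 CPM in WT. The change was 1.82 ± 0.28 (adjusted p = 0.00137, edgeR, and 0.0117 without *pbp1Δ* replicate 1). *PMT2*, an O-mannosyltransferase gene, had 454, 285 and 311 CPM in *pab1Δpbp1Δ*, against 620, 591 and 555 CPM in *pbp1Δ*. The strains did not overlap, and the change of -0.75 ± 0.18 was at the threshold without passing it (adjusted p = 0.01). It passed with DESeq2, with no filter on counts, with all 9 libraries in the fit, in the table per locus, with a replicate block and without *pab1Δpbp1Δ* replicate 1 (-0.98). *DRS2*, a phospholipid flippase gene, and *ERV46*, of vesicles from the ER, had changes of -0.56 ± 0.17 and -0.39 ± 0.21 that did not pass, and they passed without *pab1Δpbp1Δ* replicate 1 (-0.78 and -0.66).

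**Figure D4:**
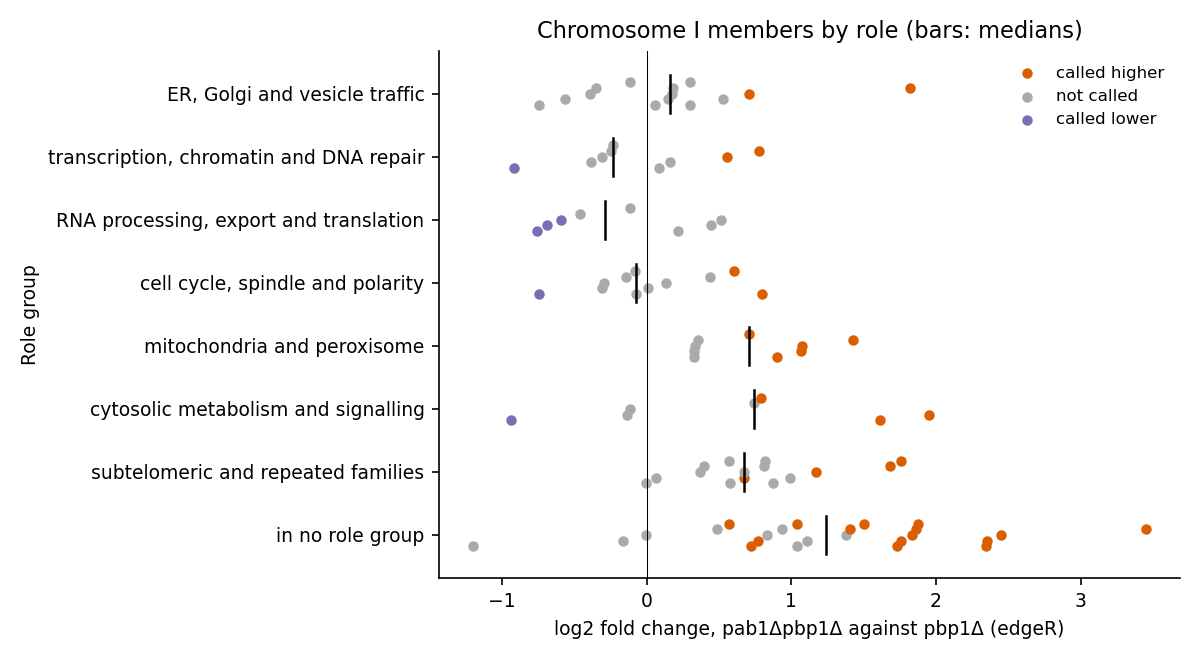
Log2 fold changes of the 97 members in *pab1Δpbp1Δ* against *pbp1Δ* (horizontal axis) by role group (vertical axis), coloured by the edgeR call at an adjusted p under 0.01, with bars for group medians. Medians lie at 0.71 for mitochondria and peroxisome and 1.24 for members in no role group, and at -0.29 for RNA processing, export and translation.

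Of 15 members of subtelomeric and repeated families, 4 rose (*SEO1*, YAR061W, *DFP1* and *PRM9*) and 11 did not pass, with a median of 0.67. Reads of these families may be split among near-identical copies. *SEO1*, a putative permease gene and 3rd from the left end, had 11.1, 19.9 and 13.9 CPM in *pab1Δpbp1Δ*, against 4.60, 4.95 and 4.45 CPM in *pbp1Δ* and 4.17, 4.20 and 3.41 CPM in WT. The change was 1.68 ± 0.22 (adjusted p = 0.000755, edgeR). YAR061W, 3rd from the right end, had 5.98, 7.77 and 7.64 CPM in *pab1Δpbp1Δ*, 2.34, 1.98 and 2.00 CPM in *pbp1Δ* and 1.43, 1.36 and 1.06 CPM in WT, with no overlap among the 3 strains and a change of 1.76 ± 0.19 against *pbp1Δ* (adjusted p = 0.000388, edgeR). The flocculin gene *FLO1* had the lowest value of the group (-0.01 ± 0.16) and its paralogue *FLO9* had 0.58 ± 0.19, and neither passed. The outermost members *PAU8* on the left and YAR068W and YAR069C on the right had 0.40 ± 0.31, 0.37 ± 0.31 and 0.93 ± 0.38, which did not pass, from at most 114 counts per library. The calls of *PRM9* and *DFP1*, of the DUP240 family, were lost without any 1 of the *pbp1Δ* libraries or *pab1Δpbp1Δ* replicate 3, and that of *DFP1* also without replicate 2 (adjusted p of at most 0.0414 and 0.0279). That of *PRM9* was also lost with a replicate block (0.0104). Likewise *PSK1*, *NTG1*, *SPC72* and *SWH1* lost their calls without any 1 of the *pbp1Δ* libraries or *pab1Δpbp1Δ* replicate 3 (adjusted p of at most 0.0213, 0.0422, 0.0213 and 0.0431). *NTG1* also lost it without *pab1Δpbp1Δ* replicate 2 (0.0163) and with a replicate block (0.013), and *SWH1* without that replicate (0.0187).

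Members in no role group, mostly short or uncharacterized reading frames, gave 15 of the 33 rises among 24 tested, with a median of 1.24, and 9 did not pass. These include YAL066W and YAL034C-B, which rose, and YAL047W-A, which did not pass, the 3 members that met the minimum count only through the double mutant. Without them 13 of 21 rose, with a median of 1.04. The lowest value was that of YAL004W. *LDS1*, which encodes a protein of lipid droplets in spores, had the largest rise among members averaging at least 50 TMM-normalized counts per library. Larger values came from members under that minimum, YAL066W (3.45 ± 0.75), YAL042C-A (2.45 ± 0.56) and YAL034C-B (2.35 ± 0.41). The *LDS1* values follow. *LDS1* had 2.21, 2.46 and 1.86 CPM in *pab1Δpbp1Δ*, against 0.357, 0.468 and 0.462 CPM in *pbp1Δ* and 0.299, 0.300 and 0.308 CPM in WT, and the change was 2.34 ± 0.25 (adjusted p = 0.000378, edgeR). *FUN19*, chosen after its values were seen, had 98.3, 185 and 187 CPM in *pab1Δpbp1Δ*, against 60.5, 55.6 and 60.9 CPM in *pbp1Δ*, a change of 1.41 ± 0.23 (adjusted p = 0.00173, and 0.0129 and 0.0116 without *pbp1Δ* replicates 1 and 2, edgeR). In this gene, *FRT2* and *GDH3*, *pab1Δpbp1Δ* replicate 1 was the lowest of its strain.

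Near the left end, YAL063C-A had 4.86, 8.15 and 6.12 CPM in *pab1Δpbp1Δ*, against 1.52, 1.67 and 2.02 CPM in *pbp1Δ* (1.88 ± 0.25, adjusted p = 0.000756, edgeR). YAL064W beside it had 5.18, 10.5 and 10.8 CPM in *pab1Δpbp1Δ*, against 2.48, 2.41 and 2.97 CPM in *pbp1Δ* (1.76 ± 0.29), and its call was lost without *pbp1Δ* replicates 1 and 2 or *pab1Δpbp1Δ* replicate 3 (adjusted p of 0.0154, 0.0135 and 0.0104). Both reading frames thus rose between *SEO1* and *FLO9*. The other named rises, YAR019W-A (1.86 ± 0.34), YAR030C (1.83 ± 0.30) and YAL069W (1.73 ± 0.38), have no RefSeq gene, and each lost its call without any 1 of the *pbp1Δ* libraries, among others (highest adjusted p of 0.0188, 0.0146 and 0.0314). YAL066W, at the minimum count, had 30.0, 63.0 and 43.0 counts in *pab1Δpbp1Δ*, against 0, 3 and 7 counts in *pbp1Δ*. The Ty1 entries YAR009C and YAR010C share sequence with many other copies. YAR009C had 0.77 ± 0.18 (adjusted p = 0.00907, edgeR). Its call was lost without *pbp1Δ* replicates 1, 2 or 3 (0.042, 0.046 and 0.0209), without *pab1Δpbp1Δ* replicates 2 or 3 (0.0157 and 0.0125) and with a replicate block (0.0138). YAR010C had -0.01 ± 0.35.

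**Figure D5:**
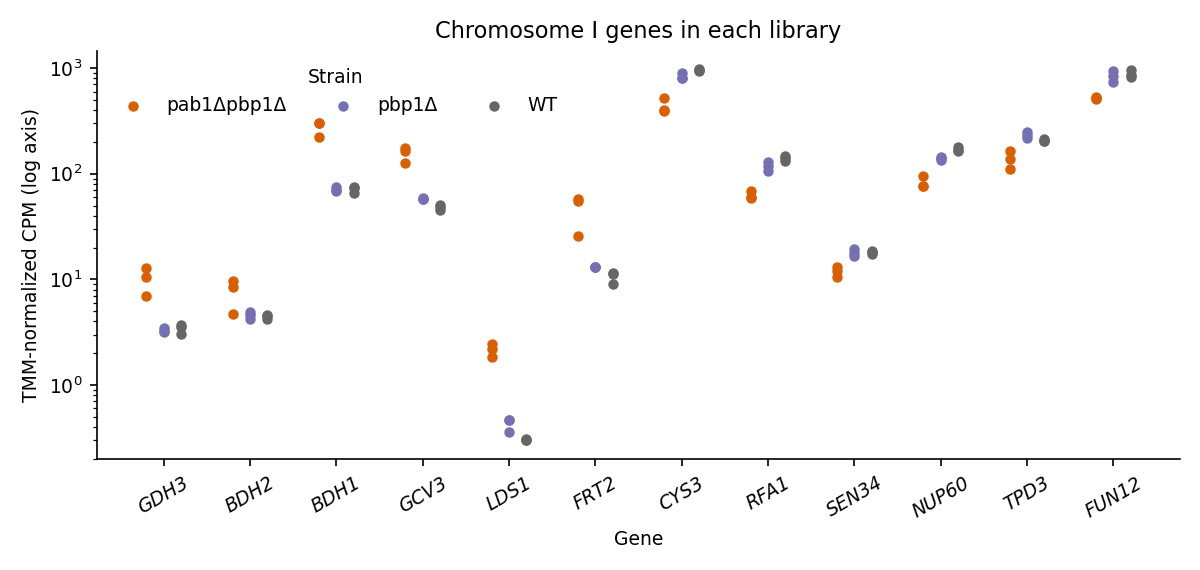
TMM-normalized CPM (vertical axis, log scale) of 12 chromosome I genes in each library of *pab1Δpbp1Δ*, *pbp1Δ* and WT, 1 point per library, first 6 with a positive log2 fold change and then 6 with a negative one. *BDH1* lies at 221, 301 and 305 CPM in *pab1Δpbp1Δ* and between 65.3 and 75.3 CPM in the other strains, while *RFA1* lies between 58.7 and 69.3 CPM in *pab1Δpbp1Δ* and above 106 CPM elsewhere.

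The effect of *PBP1* deletion alone was read by comparing *pbp1Δ* with WT, and it was small for the members. Of 94 tested, 11 changed (11.7%, against 11.6% of all 6425 entries), 7 higher (7.45%, against 5.34%) and 4 lower (4.26%, against 6.24%), none of them 2-fold. The median log2 fold change was 0.05 over members and 0.01 over all entries. With upper-quartile normalization 7 were higher and 2 lower. The members' calls thus came at the rate of all entries. Their number was 4 and 5 without *pbp1Δ* replicates 2 and 3 and 5 and 7 without WT replicates 2 and 3. Shares of all entries in those fits are not given here. With all 9 libraries in the fit edgeR called 0 of 97, with 15 at an unadjusted p under 0.05, while DESeq2 on the 6 libraries called 15.

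*CYC3* fell to 20.9, 20.1 and 18.9 CPM in *pbp1Δ*, against 29.7, 28.1 and 25.3 CPM in WT (-0.47 ± 0.07, adjusted p = 0.00148, edgeR). *DEP1*, of the Rpd3L histone deacetylase complex, had 49.1, 44.9 and 46.1 CPM in *pbp1Δ*, against 62.1, 61.1 and 53.9 CPM in WT (-0.34 ± 0.06, adjusted p = 0.00512, edgeR). *NUP60* (-0.28 ± 0.05) and *ECM1* (-0.25 ± 0.05) also fell. In these 4 genes the *pbp1Δ* libraries lay wholly below WT. Rises were found for YAR061W (0.71 ± 0.15), *FUN14* (0.41 ± 0.07), *FLO1* (0.40 ± 0.05), *POP5* (0.39 ± 0.05), *SNC1* (0.35 ± 0.05), a vesicle SNARE gene, *GCV3* (0.27 ± 0.05) and *AIM2* (0.20 ± 0.04). Of these 11 calls, 7 were lost when 1 library was left out. That of YAR061W was lost without any 1 of the 6 (adjusted p between 0.0122 and 0.0315, edgeR), and that of *AIM2* without any but *pbp1Δ* replicate 1 (between 0.0271 and 0.0527). *GCV3* and *NUP60* lost theirs without *pbp1Δ* replicates 2 or 3 or WT replicates 2 or 3 (at most 0.0235 and 0.0197), *DEP1* and *ECM1* without *pbp1Δ* replicates 2 or 3 or WT replicate 2 (at most 0.0241 and 0.0183), and *FUN14* without *pbp1Δ* replicate 2 (0.013). *CYC3*, *FLO1*, *POP5* and *SNC1* passed without each library in turn. *FLO1* had 28.0, 30.0 and 29.5 CPM in *pbp1Δ*, against 21.9, 21.9 and 22.5 CPM in WT (adjusted p = 0.000608, edgeR). Among members averaging at least 50 TMM-normalized counts, YAL064W (0.68 ± 0.16), *TDA8* (0.51 ± 0.16), YAL037W (0.48 ± 0.11) and YAL063C-A (0.46 ± 0.16) were next in size above 0. Below it YAL065C (-0.42 ± 0.20) and YAR010C (-0.34 ± 0.15) were next, and none of these 6 passed. Under that minimum in these libraries, YAL056C-A (0.78 ± 0.46), YAR069C (0.65 ± 0.48) and *LDS1* (0.50 ± 0.23) were also above 0 and did not pass.

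For both deletions together, *pab1Δpbp1Δ* was compared with WT. Of 97 members, 48 changed (49.5%, against 43.4% of all 6558 entries), 38 higher (39.2%, against 21.8%) and 10 lower (10.3%, against 21.6%), with a median of 0.45 against 0.03. With upper-quartile normalization, which raised the median of all entries to 0.28, 48 were higher and 4 lower. The number was 73 and 25 without *pab1Δpbp1Δ* replicates 1 and 3 and 22, 23 and 21 without WT replicates 1, 2 and 3, again without the share of all entries in those fits. This comparison shares its libraries with both others. *BDH1* had a log2 fold change of 1.94 against WT and 1.95 against *pbp1Δ*, *GCV3* 1.68 and 1.43, *NUP60* -1.06 and -0.76, *RFA1* -1.17 and -0.92, and *CYC3* 0.42 and 0.90. *CYC3* alone among these did not pass against WT (adjusted p = 0.0101, edgeR).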

How the data were processed

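Libraries from 3 isolates each of *pab1Δpbp1Δ* and *pbp1Δ* and 3 technical replicates of WT were prepared with a TruSeq stranded kit, with rRNA removed, and sequenced single-end. The authors aligned reads with Bowtie 1.0.0 to a yeast transcriptome (build R64) and quantified them with RSEM 1.3.0. The deposited expected counts are RSEM estimates per transcript, not normalized. The deposited FPKM values come from the same run, scaled by the authors to transcript length and library size. Counts were rounded and tested in R 4.3.3 with edgeR 4.0.16 (TMM, filterByExpr with a minimum count of 10, robust glmQLFit and glmQLFTest) on the 6 libraries of each pair of strains. The threshold was an adjusted p of 0.01, adjusted over all entries tested. The authors' methods name DESeq2, which was run as an alternative (1.42.0). Medians per library used log2(CPM + 0.5). Scripts were tested on simulated data. Arithmetic and figures used Python 3.11.15.

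The members, role groups and alternatives were chosen with earlier results of these data known. Named genes were the 10 largest rises and falls in *pab1Δpbp1Δ* against *pbp1Δ* and the 5 largest in *pbp1Δ* against WT among members averaging 50 or more TMM-normalized counts, the extremes of each role group, and the 3 members nearest the centromere and outermost on each arm. Genes outside this rule are named where they passed a test or are said to have been chosen later. Positions and symbols are RefSeq's for R64. The sources used here do not pair libraries of different strains, and the main fits took no pairing. In *pab1Δpbp1Δ* against WT, libraries of the same number deviated weakly together from their strain means (r of 0.147, 0.195 and 0.181). In that comparison 6 of 6 libraries deviated most like the library of their own number in the other strain. A replicate block there gave 49 changed members in place of 48. The 11 entries set aside were not counted, and no spike-in is named in the sources used here, so levels are relative to the mRNA of each library. Alternatives were other normalizations, filters, thresholds, pseudocounts and member sets, DESeq2, the table per locus, all 9 libraries, a replicate block and leaving out each library.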

Additional observations from a re-analysis of the deposited data

How the results depend on the processing

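The number of changed members in *pab1Δpbp1Δ* against *pbp1Δ* (39) ran between 12 and 66 on leaving out a library and was 60 at an adjusted p under 0.05. In *pbp1Δ* against WT (11) it ran between 4 and 10 on leaving out a library, and was 20 at 0.05, 0 with all 9 libraries (15 at an unadjusted p under 0.05) and 21 with a replicate block. There same-numbered libraries deviated together in replicate 1 and not in replicates 2 and 3 (r of 0.377, -0.06 and 0.06). Of 6 libraries, 2 deviated most like their own number (3 of 6 in *pab1Δpbp1Δ* against *pbp1Δ*, where the block gave 32). In *pab1Δpbp1Δ* against WT (48) it ran between 21 and 73. Shares of all entries called in these fits are not given here, so whether the swings are particular to the members is not known. The mean of the *pab1Δpbp1Δ* member medians (0.37) was 0.20 with a pseudocount of 5 CPM, 0.52 with upper-quartile normalization, 0.75 on FPKM and 0.24 over members over 30 kb from an end. The difference from other chromosomes was 0.37, and 0.20, 0.35 and 0.42 with that pseudocount, normalization and FPKM. For WT (-0.05) the mean was -0.0909 with upper-quartile normalization, -0.11 on FPKM and -0.0057 over 30 kb from an end. The left arm in *pab1Δpbp1Δ* (0.35) was 0.20 with a pseudocount of 5, 0.50 with upper-quartile normalization and 0.71 on FPKM, and in WT (-0.03) it was -0.056 with upper-quartile normalization, -0.084 on FPKM and 0.0023 with the set-aside entries, a change of sign. The right arm in *pab1Δpbp1Δ* (0.39) was 0.20 with a pseudocount of 5, 0.55 with upper-quartile normalization, 0.76 on FPKM, 0.27 over RefSeq genes and 0.26 over 30 kb from an end, and in WT (-0.11) it was -0.039 with a pseudocount of 5, -0.17 on FPKM and -0.032 over 30 kb from an end. The RefSeq and end-distance sets were chosen after seeing the data. Upper-quartile normalization raised the median of all entries in *pab1Δpbp1Δ* against *pbp1Δ* to 0.21 from 0.03. The sign of YAR010C in that comparison changed with upper-quartile normalization (0.17), with at least 10 counts in every library (0.014) and on leaving out a library (-0.39 to 0.32). That of *FLO1* did so in the same way (0.18, 0.015 and, leaving out a library, -0.17 to 0.14), and *ERP1* was at -0.0002 without *pab1Δpbp1Δ* replicate 3. The causes were not tested.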

Other observations

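Among the 11 chromosome I entries set aside, *EFB1*, the gene of translation elongation factor 1B, fell (log2 fold change -1.15 ± 0.13, edgeR) in *pab1Δpbp1Δ* against *pbp1Δ*, and *ACS1* (acetyl-CoA synthetase, 1.09 ± 0.14), *ADE1* (purine synthesis, 0.59 ± 0.13), YAR073W (2.56 ± 0.22) and YAR075W (2.04 ± 0.14) rose. *SSA1*, *CCR4*, *MAK16*, *CDC19*, *CLN3* and *PHO11* did not pass. YAR073W and YAR075W also rose in *pbp1Δ* against WT (3.14 ± 0.25 and 2.20 ± 0.20). With the set-aside entries counted in, chromosome I took 2.62%, 2.81% and 2.78% of all counts in *pab1Δpbp1Δ*, 2.43%, 2.59% and 2.49% in *pbp1Δ* and 2.52%, 2.52% and 2.57% in WT. *CDC19*, the pyruvate kinase gene, alone had between 12490 and 13850 CPM in *pab1Δpbp1Δ*, against 15400 to 17780 CPM in *pbp1Δ* and 16720 to 17740 CPM in WT.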
